A study of Homo sapiens with 6 samples.

Results

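The long non-coding RNAs (lncRNAs) described here are MALAT1, NEAT1 and 8 further transcripts known from work on cancer, namely TUG1, NORAD, KCNQ1OT1, OIP5-AS1, HOTAIR, CYTOR, MEG3 and PVT1. They were selected by name, through their Ensembl identifiers, from a table of 27745 genes, with results on these same libraries already known, so their levels and fitted differences are given as a description. Of the 10 lncRNAs, 6 were analysed here, and 5 of these 6 were among the 15372 genes that passed the filter on low counts. The filter removed genes with fewer than 5 counts in 3 or more libraries. TUG1, KCNQ1OT1, OIP5-AS1 and HOTAIR were not analysed here, and MEG3 fell below the filter.

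All 6 libraries came from MDA-MB-231, a human triple-negative breast cancer cell line, carrying short hairpin RNAs (shRNAs) delivered by lentivirus. The control group carried sh-TRC (libraries CTR1 and CTR2). One knockdown group carried sh-MIR100HG-1 (KD1-1 and KD1-2) and the other sh-MIR100HG-2 (KD2-1 and KD2-2). Both hairpins are directed at MIR100HG, the lncRNA that hosts miR-100, let-7a-2 and miR-125b-1, and the comparison asks what its loss does to the transcriptome. Each group had 2 replicates, the groups differ in hairpin sequence as well as in the target, and both knockdown groups share the same 2 controls. The p-values measure the spread between these libraries, in 1 cell line.

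MALAT1 and NEAT1 lie next to each other on chromosome 11 and stay in the nucleus: MALAT1 gathers in nuclear speckles, where splicing factors are stored, and NEAT1 is the scaffold on which paraspeckles are built. NORAD is a cytoplasmic RNA that binds the PUMILIO proteins, repressors that shorten the life of mRNAs. CYTOR and PVT1 are spliced lncRNAs raised in many tumors, PVT1 being the neighbor of MYC, and MEG3 is an imprinted lncRNA with growth-restraining activity.

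Sequence elements that set these RNAs apart are shown first, read from GRCh37 over the exons that the count table assigns to each gene. MALAT1 has no poly(A) tail and its 3′ end is held by a triple helix between U-rich motifs and an A-rich tract. A U-rich motif lay at chr11:65273500-65273509 and the A-rich tract at chr11:65273569-65273581, both on the + strand. They stood 478 and 406 bases before the end of the counted exon, which runs on past them (capitals mark the motif and the tract).
MALAT1 U-rich motif: gtcatgaaggTTTTTCTTTTcctgagaaaa
MALAT1 A-rich tract: tctagcttAAAAAAAAAAAAAgcaaaagat
NORAD is shown for its repeated PUMILIO elements, searched as TGTANATA on the transcribed strand. It held 15 of them, of which 10 read TGTATATA, 4 TGTAAATA and 1 TGTACATA. The 4 below are in capitals within their surroundings, on the - strand of chromosome 20 at chr20:34638115-34638122, chr20:34637434-34637441, chr20:34637425-34637432 and chr20:34634277-34634284, the middle pair lying side by side.
NORAD element 1: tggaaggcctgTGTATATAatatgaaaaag
NORAD element 4: ttacttatctgTGTATATAgtgtacataaa
NORAD element 5: tgtgtatatagTGTACATAaaggacagacg
NORAD element 15: attagcctattTGTAAATAcctttgttata
The guide strands of the hairpins, deduced as the reverse complement of their target sequences, are shown because a guide can also act through its seed (bases 2 to 8, in capitals).
sh-MIR100HG-1 guide: aTTTAAGTacaaacagaggaa
sh-MIR100HG-2 guide: tTTATTCTgtaggtcactctc

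NORAD carried 2.81 PUMILIO elements per kilobase, a density exceeded by 4 of 21437 genes of at least 1 kilobase. By number, of 27745 genes 2 held more (LNPEP, 18, and FLRT2, 16), both in longer exon models of 15266 and 34899 bases. Of 4911 genes of like length (the shorter of the pair having at least 0.8 times the length of the longer) none held as many, while 38.4% held at least 1. The other members had far fewer. NEAT1 held 6, a number reached by 13.7% of 153 genes of like length, MEG3 and PVT1 held 1 each, and MALAT1 and CYTOR held 0. The elements of NORAD began between base 761 and base 4599 of its 5339-base exon. Matches of this kind describe the letters and do not show whether a site is bound.

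**Figure D1:**
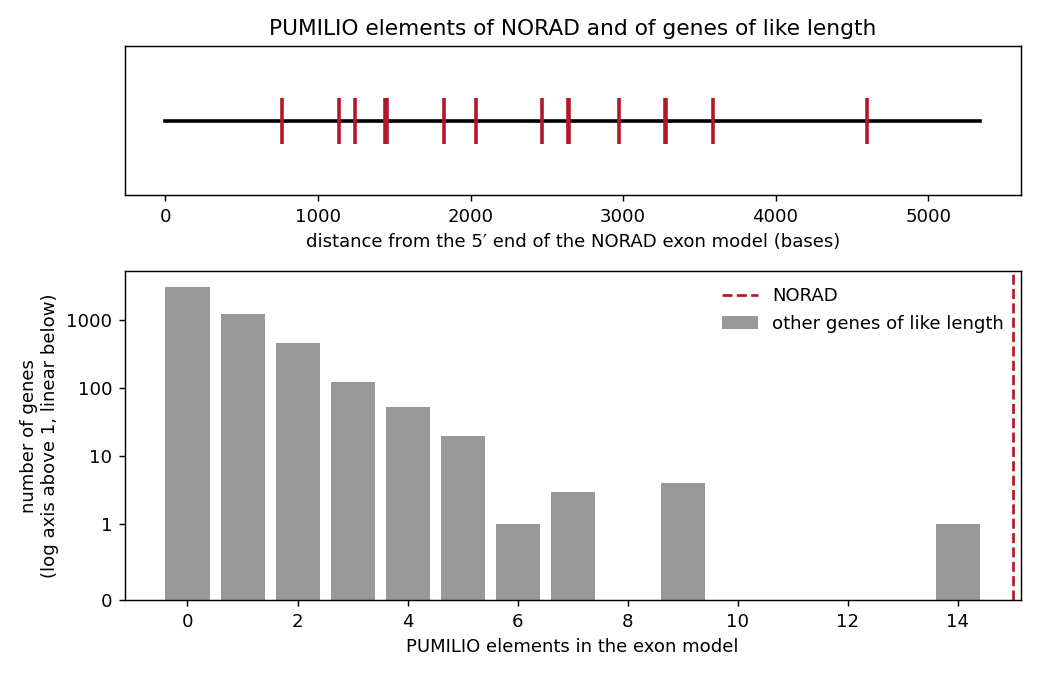
The upper line is the NORAD exon model drawn to scale in bases from its 5′ end, with a red tick at each of its 15 PUMILIO elements. The lower bars count the other genes of like length (log axis above 1) by their number of elements, and the dashed line marks NORAD, to the right of every bar.

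The seed match of the sh-MIR100HG-1 guide, ACTTAAA, occurred 4 times in MALAT1. As many were found in 2.58% of 3137 genes of like length, and at least 1 in 50.6%. Genes of like length were chosen without regard to base composition, and MALAT1 held 40.3% G and C. The seed match of the sh-MIR100HG-2 guide, AGAATAA, occurred once in MALAT1, and at least once in 53.9% of those genes. NEAT1 held 3 matches to each guide, numbers reached by 40.5% and 52.3% of 153 genes of like length. NORAD held 0 matches to the first guide and 1 to the second. Of the miRNAs hosted at MIR100HG, let-7a, miR-100 and miR-125b were searched by their seed matches, which read CTACCTC for let-7a, TACGGGT for miR-100 and CTCAGGG for miR-125b. MALAT1, NORAD and PVT1 held none of the 3, while NEAT1 held 3 let-7a and 2 miR-125b matches, CYTOR 1 and 1, and MEG3 2 and 4. Among genes of like length, as many let-7a matches were found in 17.6% for NEAT1, 23.0% for CYTOR and 25.7% for MEG3, and as many miR-125b matches in 56.9%, 33.9% and 8.93%.

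The 6 libraries held between 43804736 and 64588388 counts, with a median of 51553220. Levels within a gene are given per 1000000 counts (CPM) after TMM normalization. MIR100HG, the targeted gene, had 41.9 CPM in CTR1 and 58.5 in CTR2 against 10.4 to 16.6 in the 4 knockdown libraries, which separated control from knockdown. The hairpins overlapped (13.2 and 15.2 CPM for sh-MIR100HG-1 against 10.4 and 16.6 CPM for sh-MIR100HG-2), so this gene does not check which hairpin a library carries. Its log2 fold change over both hairpins was -1.86 (SE 0.25), with an edgeR adjusted p of 0.381 over all genes. The cell line's own genes were present (VIM 1607 to 2095 CPM, EGFR 403 to 507 CPM). Of the receptor genes behind the triple-negative label, ESR1 lay at 0.120 to 2.79 CPM and PGR at or below 0.0236 CPM. ERBB2, in contrast, stood at 71.6 to 116 CPM. PTPRC, a marker of blood cells, stayed at or below 0.689 CPM. The 2 controls stood apart from each other in the lncRNAs described next, so results that rest on them are given with and without each.

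MALAT1, the RNA of nuclear speckles, stood at 1617 CPM in CTR1 and 304 in CTR2, at 994 and 1555 with sh-MIR100HG-1 (KD1-1, then KD1-2) and at 191 and 350 with sh-MIR100HG-2 (KD2-1, then KD2-2). CTR1 and both sh-MIR100HG-1 libraries were high, CTR2 and both sh-MIR100HG-2 libraries were low, and the controls spanned nearly the whole range. The raw counts behind these levels ran from 8664 in KD2-1 to 86860 in CTR1, so counting error was small beside the spread. MALAT1 took 0.173% of all counts in CTR1 and 0.0307% in CTR2. Its exon block lies at chr11:65265233-65273987 on the + strand, 8755 bases long.

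NEAT1, the paraspeckle scaffold, repeated that division. It stood at 652 CPM in CTR1 and 141 in CTR2, at 843 and 647 with sh-MIR100HG-1 (KD1-1, then KD1-2) and at 127 and 130 with sh-MIR100HG-2 (KD2-1, then KD2-2). The same 3 libraries were high and the same 3 low, with no value between 141 and 647 CPM. The sh-MIR100HG-2 replicates were nearly identical (128 ± 1.69 CPM, SD, n = 2), whereas the controls gave 396 ± 362. NEAT1 lies at chr11:65190245-65213011 on the + strand, and the counted block of 22767 bases covers its long form, so the short and long forms cannot be told apart in these counts.

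The spread between the controls was rare among genes of at least 10 CPM. CTR1 exceeded CTR2 by 5.31-fold for MALAT1 and 4.64-fold for NEAT1. Among 9575 genes with a mean of at least 10 CPM in the controls, the median ratio of the higher to the lower control was 1.20. The 99th percentile was 2.65. Only 15 genes had a larger ratio than MALAT1 and 23 a larger ratio than NEAT1. Within sh-MIR100HG-1 the ratios were 1.57 and 1.30, and within sh-MIR100HG-2 they were 1.83 and 1.02.

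**Figure D2:**
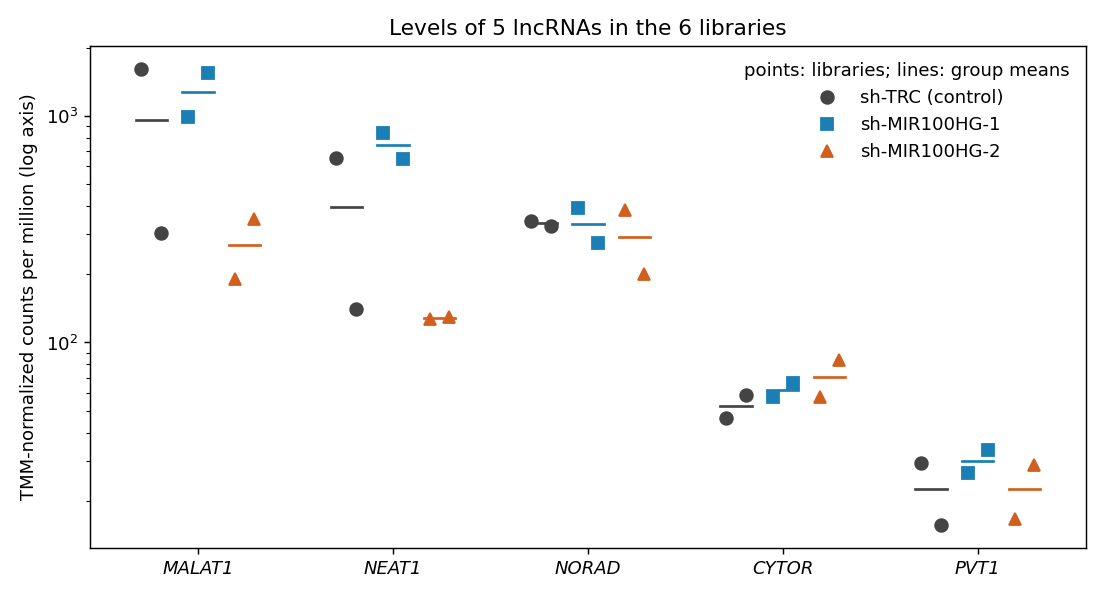
Each point is 1 library and each line a group mean, in TMM-normalized CPM on a log axis, for the 5 lncRNAs past the filter. The controls of MALAT1 (304 and 1617) and NEAT1 (141 and 652) lie far apart, while those of NORAD (328 and 345) lie together.

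NORAD, the PUMILIO decoy, stood at 345 CPM in CTR1 and 328 in CTR2, at 393 and 275 with sh-MIR100HG-1 (KD1-1, then KD1-2) and at 385 and 201 with sh-MIR100HG-2 (KD2-1, then KD2-2). Its controls differed by 1.05-fold and lay inside the range of both knockdown groups. KD2-2 was the lowest library. NORAD lies at chr20:34633544-34638882 on the - strand, in a single exon.

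CYTOR stood at 46.5 CPM in CTR1 and 58.5 in CTR2, at 57.3 and 66.3 with sh-MIR100HG-1 (KD1-1, then KD1-2) and at 57.2 and 83.7 with sh-MIR100HG-2 (KD2-1, then KD2-2). CTR1 was the lowest library and KD2-2 the highest, but CTR2 lay above KD1-1 and KD2-1, so the groups overlapped. CYTOR, at chr2:87754887-87906324 on the + strand, has a near copy elsewhere in the genome, MIR4435-2HG. Of the 50-base windows in its exons, 31.1% also occurred in MIR4435-2HG, so reads could be shared or lost between the 2 genes and its level is uncertain. MIR4435-2HG had 94.4 and 108 CPM in the controls, 114 and 123 with sh-MIR100HG-1, and 105 and 174 with sh-MIR100HG-2. KD2-2 was the highest library for both genes.

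PVT1 was counted over 21 exon blocks at chr8:128806779-129113499 on the + strand. It stood at 29.2 CPM in CTR1 and 15.6 in CTR2, at 26.6 and 33.4 with sh-MIR100HG-1 (KD1-1, then KD1-2) and at 16.6 and 28.7 with sh-MIR100HG-2 (KD2-1, then KD2-2). CTR2 and KD2-1 were the low libraries, as for MALAT1 and NEAT1, but KD2-2 was not. Its neighbor MYC, the growth-promoting transcription factor, had 265 and 174 CPM in the controls, 300 and 428 with sh-MIR100HG-1, and 201 and 414 with sh-MIR100HG-2. CTR2 and KD2-1 were the lowest libraries for MYC as well.

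MEG3 was near the limit of detection. Its raw counts were 2 in CTR2, 2 in KD1-1 and 0 in the other 4 libraries, where a count of 0 allows up to 3 counts, or 0.0558 to 0.0708 CPM. Intervals and limits of this kind cover counting error only. DLK1, the protein-coding gene of the same imprinted cluster, had 0 counts in every library. For 3 of the lncRNAs not analysed here, the genes on the opposite strand gave the following levels. KCNQ1, across from KCNQ1OT1, reached at most 0.0799 CPM, and HOXC11, across from HOTAIR, at most 0.0301 CPM. OIP5, across from OIP5-AS1, lay between 4.37 and 12.2 CPM. Whether the counting used strand is not given in the sources used here, so reads from opposite strands cannot be told apart.

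To set the lncRNAs beside each other, levels were divided by exon length (CPM per kilobase). The controls averaged 110 ± 106 for MALAT1, 62.95 ± 2.25 for NORAD, 17.4 ± 15.9 for NEAT1, 15.2 ± 2.46 for CYTOR and 4.08 ± 1.75 for PVT1 (SD, n = 2). MALAT1 and NORAD did not separate: MALAT1 per kilobase ran from 21.8 to 185 over the 6 libraries and NORAD from 37.6 to 73.5, with MALAT1 the higher in 4 of 6. NEAT1 (5.59 to 37.04) and CYTOR (13.4 to 24.2) overlapped too, NEAT1 being the higher in 3 of 6. NORAD lay above CYTOR in all 6 and CYTOR above PVT1 in all 6. The values of the spliced lncRNAs depend on the length used: with the longer exon sums of a newer annotation (17782 bases for CYTOR and 25431 for PVT1) the control means fell to 2.95 for CYTOR and 0.882 for PVT1, against 17.4 for NEAT1, whose length was the same. Among the tested genes, MALAT1 per kilobase ranked between 132 in CTR1 and 2333 in KD2-1, so its place in the transcriptome of one cell line moved by more than an order of magnitude.

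For knockdown against control, taking both hairpins together, no member passed an adjusted p of 0.05 in edgeR's quasi-likelihood test, and none of the 15372 genes did (0%). At an unadjusted p under 0.05 the members counted 0 of 5 and all genes 7.68%. The log2 fold change was -0.71 for MALAT1 (SE 0.55, 95% interval -1.96 to 0.54, adjusted p = 0.806) and -0.36 for NEAT1 (SE 0.48, interval -1.45 to 0.74, adjusted p = 0.895). NORAD came to -0.10 (interval -0.74 to 0.53), CYTOR to 0.33 (-0.19 to 0.85) and PVT1 to 0.22 (-0.53 to 0.96). None of the 5 members had all 4 knockdown libraries beyond both controls, against 17.5% of all genes. The intervals for MALAT1 and NEAT1 were wide enough to hold a fall or a rise.

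That pooled value combined hairpins on opposite sides of zero. With sh-MIR100HG-1 the log2 fold change was 0.41 for MALAT1 (SE 0.65, adjusted p = 0.8998) and 0.91 for NEAT1 (SE 0.56, adjusted p = 0.761), with 0 of 5 members at an unadjusted p under 0.05 (6.87% of all genes) and no call after adjustment. With sh-MIR100HG-2 it was -1.83 for MALAT1 (SE 0.67, unadjusted p = 0.0242, adjusted p = 0.526) and -1.62 for NEAT1 (SE 0.57, unadjusted p = 0.0209, adjusted p = 0.517). These were the 2 of 5 members under an unadjusted 0.05, beside 8.86% of all genes, and again none was called after adjustment. Without the filter on low counts edgeR did call both (adjusted p = 2.4e-10 for MALAT1 and 2.0e-07 for NEAT1). It also called NEAT1 with sh-MIR100HG-1 (edgeR adjusted p = 0.0381) and MALAT1 with both hairpins together (adjusted p = 0.0364). With sh-MIR100HG-2 the unfiltered log2 fold changes stayed close to the main fit, at -1.81 for MALAT1 and -1.61 for NEAT1. Their SEs fell to 0.25 and 0.26, although the controls, which stood far apart, were the same. In the main fit the values for NORAD, CYTOR and PVT1 were -0.01, 0.23 and 0.42 with the first hairpin. With the second they were -0.20, 0.43 and 0.01.

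Compared directly, without the controls' means, sh-MIR100HG-2 lay below sh-MIR100HG-1 by -2.24 on the log2 scale for MALAT1 (SE 0.68, interval -3.78 to -0.69, a 4.71-fold difference, unadjusted p = 0.0100 in edgeR). The SEs, intervals and p-values here still drew on the spread of all 6 libraries, the controls included. For NEAT1 the difference was -2.54 (SE 0.59, interval -3.89 to -1.18, a 5.80-fold difference, unadjusted p = 0.00238 in edgeR). The adjusted p was 0.509 for both, and 2 of 5 members stood against 9.45% of all genes at an unadjusted p under 0.05. The 2 sh-MIR100HG-2 libraries lay below both sh-MIR100HG-1 libraries for MALAT1 and NEAT1, 2 of 5 members, beside 43.9% of all genes whose groups did not overlap in one direction or the other. NORAD (-0.19), CYTOR (0.19) and PVT1 (-0.41) had intervals that included zero.

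**Figure D3:**
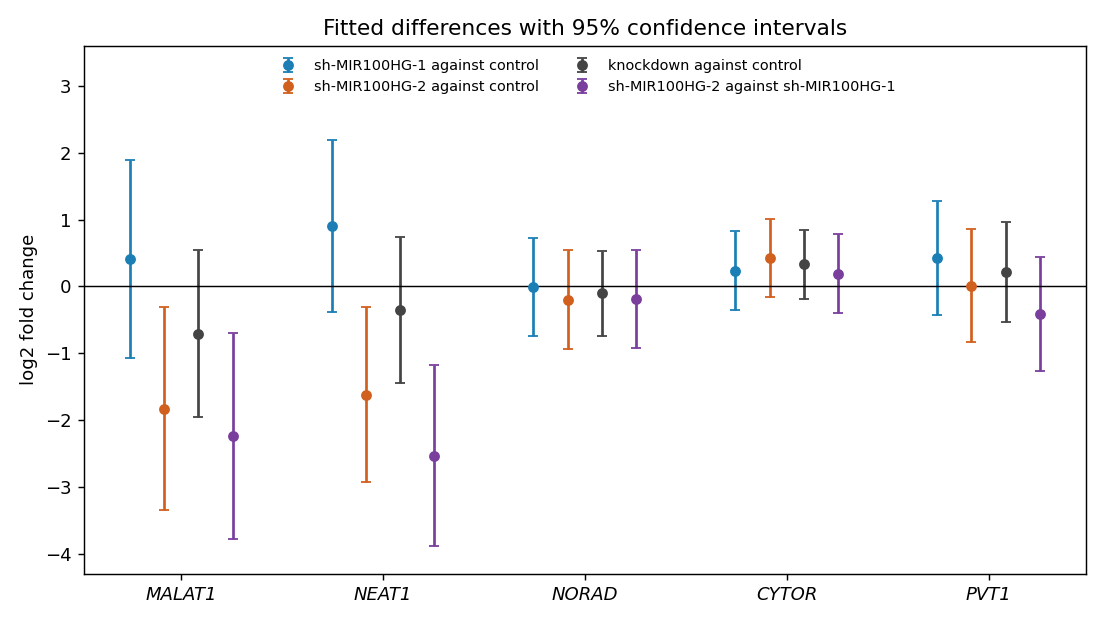
Points are edgeR log2 fold changes and bars their 95% confidence intervals, for 5 lncRNAs in 4 comparisons. The 2 hairpins fall on opposite sides of zero for MALAT1 (0.41 and -1.83) and NEAT1 (0.91 and -1.62), and every interval for NORAD, CYTOR and PVT1 includes zero.

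The comparisons with the control turned on which control was used. Without CTR1, knockdown against control became 0.95 for MALAT1 and 1.14 for NEAT1. Without CTR2 the same values were -1.46 and -1.08. The sh-MIR100HG-1 value for MALAT1 moved from 2.07 without CTR1 to -0.34 without CTR2, and that for NEAT1 from 2.41 to 0.19. With sh-MIR100HG-2, MALAT1 came to -0.17 without CTR1 and -2.58 without CTR2, and NEAT1 to -0.13 and -2.34. The difference between the hairpins does not use the controls' means and kept a log2 fold change between -2.74 and -1.86 for MALAT1 and between -2.70 and -2.33 for NEAT1 with any 1 library left out. The SE of this difference was smaller for both genes without CTR1 or without CTR2, where the wide control pair no longer entered the shared estimate of spread.

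**Figure D4:**
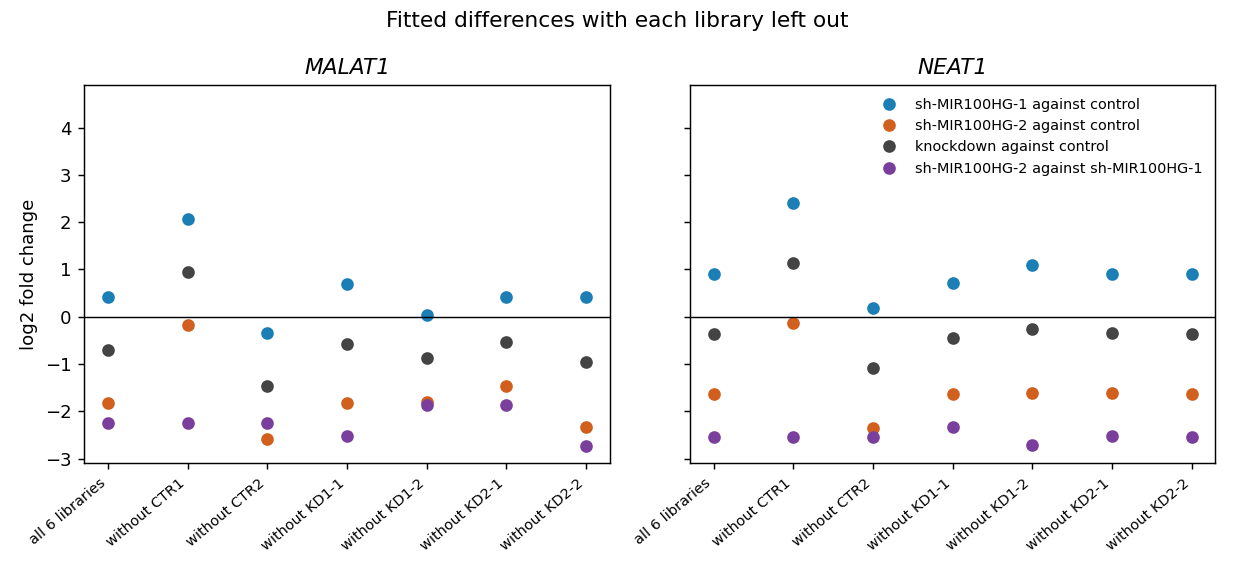
Each column gives the log2 fold changes of MALAT1 (left) or NEAT1 (right) with all 6 libraries or with 1 left out, colored by comparison. The values against the control move up without CTR1 and down without CTR2, while sh-MIR100HG-2 against sh-MIR100HG-1 stays between -2.74 and -1.86 for MALAT1.

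Other measures of the libraries moved with MALAT1 and NEAT1. The 13 mitochondrial genes took 3.46% of counts in CTR1, 3.30% in KD1-1 and 3.38% in KD1-2, against 2.41% in CTR2, 1.52% in KD2-1 and 1.84% in KD2-2, which is the same division of the libraries. TERC, the RNA of telomerase, which lacks a poly(A) tail, had 2.77, 5.77 and 5.43 CPM in the first 3 of these and 0.408, 0.573 and 1.48 CPM in the other 3. The 66 histone genes of the main families, most of whose mRNAs also lack the tail, ran the other way. They took 0.0758%, 0.0719% and 0.0879% of counts in CTR1, KD1-1 and KD1-2 and 0.0923%, 0.0904% and 0.154% in CTR2, KD2-1 and KD2-2. Whether the libraries were made by poly(A) selection or by removal of ribosomal RNA is not given in the sources used here. The part of these measures in the result was not tested. In bulk RNA, fewer cells expressing a transcript and less of it per cell cannot be told apart.

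The genes whose levels followed the lncRNAs most closely were ranked by Pearson's r of log2 CPM over the 6 libraries, among 9507 genes, as a description of points that share library and depth. For MALAT1 they were SNAI2 (r = 0.994), a repressor of epithelial genes, ATF3 (0.993), a transcription factor induced by stress, and SH3D21 (0.993). For NEAT1 they were an unnamed lncRNA gene, ENSG00000264112 (0.994), CCNL1 (0.993), a cyclin that acts with splicing kinases, and HES1 (0.991), a repressor downstream of Notch. MALAT1 and NEAT1 had r = 0.936 with each other. With r above 0.9 there were 264 genes for MALAT1 and 382 for NEAT1. ATF3 ran from 267 CPM in CTR1 to 26.7 in CTR2, and had 186 and 354 with sh-MIR100HG-1 and 17.7 and 43.4 with sh-MIR100HG-2. CCNL1 had 137 and 20.9 CPM in the controls, 138 and 144 with sh-MIR100HG-1, and 20.0 and 21.5 with sh-MIR100HG-2. HES1 swung further, from 248 CPM in CTR1 and 288 in KD1-1 to 16.9 in CTR2 and 7.71 in KD2-2.

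**Figure D5:**
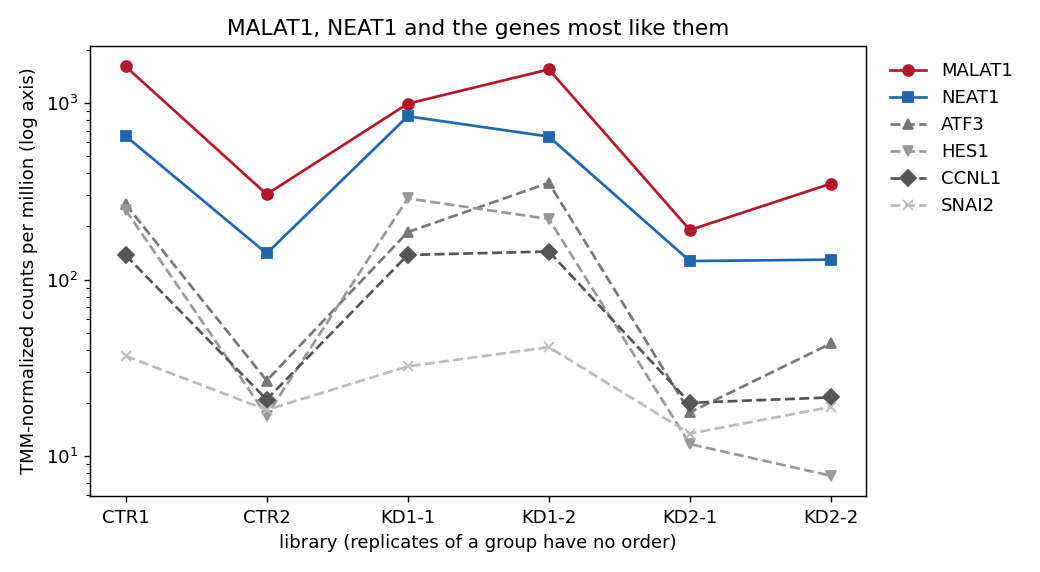
TMM-normalized CPM (log axis) of MALAT1, NEAT1 and 4 of the genes most like them in each of the 6 libraries. All 6 genes are high in CTR1, KD1-1 and KD1-2 and low in CTR2, KD2-1 and KD2-2, with SNAI2 moving least (13.4 to 41.3).

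No protein listed as a partner of these lncRNAs passed the adjusted threshold in any of the 4 comparisons, and none of the 15372 genes tested did (0%). Of 29 listed paraspeckle proteins 28 were tested. At an unadjusted p under 0.05 in knockdown against control, SMARCA4 (log2 fold change 0.53) and SMARCC1 (0.45), subunits of the SWI/SNF chromatin remodeler, were higher and DLX3 (-2.17), a homeobox factor with under 1 CPM, was lower, 3 of 28 beside 7.68% of all genes. NONO and SFPQ, the proteins that NEAT1 needs to form a paraspeckle, had values of -0.18 (SE 0.17) and 0.02 (SE 0.22). The median over the list was 0.02, beside -0.04 over all genes tested. In the comparison of the hairpins, in which NEAT1 differed by 5.80-fold, the list's median was -0.12. There 0 of 28 were under an unadjusted 0.05, beside 9.45% of all genes.

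All 20 nuclear speckle proteins were tested. In knockdown against control 0 were under an unadjusted p of 0.05, beside 7.68% of all genes, and their median was 0.07. Between the hairpins their median was -0.17. DDX39B (-0.65), an RNA helicase of mRNA export, was the 1 gene of the 20 under an unadjusted 0.05, beside 9.45% of all genes. DDX39B was high in the same libraries as MALAT1, with 81.4, 89.9 and 90.1 CPM in CTR1, KD1-1 and KD1-2 and 53.5, 57.1 and 57.8 CPM in CTR2, KD2-1 and KD2-2. It is named here after its values were seen.

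Of 14 gene names listed for NORAD 12 were tested. In knockdown against control 0 were under an unadjusted 0.05, beside 7.68% of all genes (median 0.16). PUM2, a PUMILIO protein, came to 0.29 (SE 0.18). Of 14 partners of HOTAIR in the complexes PRC2 and LSD1, which silence chromatin, MTF2 (0.77) and JARID2 (0.59), accessory subunits of PRC2, were higher at an unadjusted p under 0.05 and RCOR1 (-0.86), the LSD1 corepressor, was lower, 3 of 14 beside 7.68% of all genes. EZH2, the enzyme of PRC2, came to 0.13 (SE 0.18). Between the hairpins EZH2 (-0.50) and SUZ12 (-0.97), both core subunits of PRC2, were the 2 of 14 under an unadjusted 0.05, beside 9.45% of all genes, and SUZ12 is named after its values were seen. RCOR1 had 85.7 and 89.5 CPM in the controls and 33.2 to 67.3 in the knockdown libraries, without overlap, as in 17.5% of all genes.

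Among 29 genes listed at the loci of the 10 lncRNAs, 19 were tested and 3 were lower in knockdown at an unadjusted p under 0.05, beside 7.68% of all genes. LTBP3, near MALAT1, which binds latent TGF-beta, came to -1.004 (SE 0.29, adjusted p = 0.494 in edgeR). Its levels were 70.1 CPM in CTR1 and 145 in CTR2 against 39.7 to 67.7 in the knockdown libraries. EPB41L1, near NORAD, a linker of membrane and cytoskeleton, came to -0.73, and SLC22A18, of the imprinted cluster of KCNQ1OT1, to -1.32. CDKN1C, the cell cycle inhibitor p57 of that cluster, had 5.99 and 10.1 CPM in the controls and 9.21 to 14.5 in the knockdown libraries (0.57, SE 0.28, unadjusted p = 0.0735 in edgeR). With sh-MIR100HG-2 alone it came to 0.84 (unadjusted p = 0.0275, adjusted p = 0.532 in edgeR). At an unadjusted p under 0.05 it was the 1 gene of the list that was higher, with 2 lower, beside 8.86% of all genes. MYC came to 0.61 (SE 0.33) in knockdown against control. The median of the 19 genes was 0.13, beside -0.04 over all genes.

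Of 50 other lncRNAs known from cancer 24 were in the table and 12 were tested. None was under an unadjusted p of 0.05 in knockdown against control, beside 7.68% of all genes, and the median was -0.14. Between the hairpins the median was -0.55, beside -0.01 over all genes, with 4 of the 12 higher and 8 lower. CRNDE (-1.24, SE 0.29) and LINC00467 (-0.76, SE 0.30), singled out after their values were seen, were lower with sh-MIR100HG-2 at an unadjusted p under 0.05. They were 2 of the 12, beside 9.45% of all genes. CRNDE had 10.8 and 8.22 CPM in the controls, 12.6 and 15.6 with sh-MIR100HG-1, and 5.62 and 6.25 with sh-MIR100HG-2, so that here the controls lay between the hairpins.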

How the data were processed

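RNA-seq of total RNA from 6 libraries was analysed. The authors deposited 1 table of raw read counts per gene with exon coordinates and gene length. Per the labels, reads were aligned to GRCh37 with STAR 2.5.2a. The kind of RNA selection, strand and the treatment of reads that map to several places are not given in the sources used here. The members and gene lists were chosen with earlier results of these data known. Genes with fewer than 5 counts in 3 or more libraries were removed (12373 removed, 15372 kept). Counts were TMM-normalized and fitted in edgeR 4.0.16 (R 4.3.3) by a quasi-likelihood model of 3 groups, with Benjamini-Hochberg adjustment over all genes tested. The common biological coefficient of variation was 27.8%, with 3 residual degrees of freedom. The fit was also run on simulated counts with known changes, alike in both hairpins. Their spread followed a common trend, with no split between the controls, so that run does not bear on MALAT1 or NEAT1. CPM per kilobase used the deposited gene length. Symbols, for 26966 of 27745 genes, and sequences came from a GRCh37 reference and RefSeq miRNAs. From each list, up to 4 genes at an unadjusted p under 0.05 in knockdown against control were named, with a few fixed genes, MIR100HG, and the 3 genes most like MALAT1 and NEAT1. Mitochondrial genes were taken by chromosome. The precision that counting allows follows from 43804736 to 64588388 counts per library. Alternatives were DESeq2 1.42.0, a likelihood ratio test, other scalings, no filter, a replicate block and each library left out.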

Additional observations from a re-analysis of the deposited data

Results flagged for a closer look

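MALAT1 and NEAT1 are listed because both sh-MIR100HG-1 libraries lay above the control mean of log2 CPM and both sh-MIR100HG-2 libraries below it. That mean was taken over controls that stood far apart. In the main fit the difference between the 2 hairpins, tested directly, did not pass the adjustment over all genes for either gene. sh-MIR100HG-2 against sh-MIR100HG-1 gave a log2 fold change of -2.24 for MALAT1 (edgeR, unadjusted p = 0.0100, adjusted p = 0.509). The value for NEAT1 was -2.54 (edgeR, unadjusted p = 0.00238, adjusted p = 0.509). In both genes each of the 2 sh-MIR100HG-2 libraries lay below each of the 2 sh-MIR100HG-1 libraries. The 2 controls differed by a like amount, 5.31-fold for MALAT1 and 4.64-fold for NEAT1. CTR1 lay with sh-MIR100HG-1 and CTR2 with sh-MIR100HG-2.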

How the results depend on the processing

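The main fit called 0 genes in every comparison, and this count depended on the test. Taking first both hairpins together, then sh-MIR100HG-1 and sh-MIR100HG-2 each against the control, and last the hairpins against each other, the genes called were 392, 227, 517 and 679 without a filter on low counts, 109, 34, 121 and 91 in the likelihood ratio test, and 129, 65, 165 and 103 in DESeq2. With 1 library left out the last 3 gave 0 to 3, 0 to 4 and 0 to 7, the highest without CTR1, CTR2 and CTR2, and 6 in the last without CTR1. Between the controls and either hairpin, same-numbered libraries did not deviate together (correlations of deviations -0.21 and 0.01). Between the hairpins they did in part (0.44). The replicate block called 0 genes in each comparison. Between the hairpins it put 2016 genes under an unadjusted p of 0.05, against 1453 in the main fit (both edgeR). Against the control, leaving out 1 library changed the sign of MALAT1 (-1.46 to 0.95), NEAT1 (-1.08 to 1.14), NORAD (-0.38 to 0.086) and PVT1 (-0.17 to 0.74) for both hairpins together, of MALAT1 (-0.34 to 2.07) and NORAD (-0.29 to 0.22) for sh-MIR100HG-1, and of NORAD (-0.74 to 0.19) and PVT1 (-0.44 to 0.53) for sh-MIR100HG-2. Between the hairpins it did so for NORAD (-0.73 to 0.21) and CYTOR (-0.11 to 0.44). PVT1 with sh-MIR100HG-2 also fell to -0.044 under upper quartile scaling and -0.0096 under the replicate block. NEAT1 between the hairpins had an adjusted p of 0.00454 in DESeq2, 0.0135 in the likelihood ratio test and 1.1e-17 without the filter, MALAT1 one of 1.8e-15 without the filter, where its SE was 0.25 in place of 0.68. Without the filter the calls against the control were MALAT1 (2.4e-10) and NEAT1 (2.0e-07) with sh-MIR100HG-2, NEAT1 with sh-MIR100HG-1 (0.0381) and MALAT1 with both hairpins (0.0364). The log2 fold changes behind these calls stayed close to those of the main fit, while the SEs were smaller. The cause was not tested. The ranks per kilobase kept their order, but not the values for CYTOR and PVT1. The controls differed by 5.31-fold for MALAT1, 4.64-fold for NEAT1 and 1.05-fold for NORAD.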

Other observations

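Among the 9575 genes with a mean of at least 10 CPM in the controls, the controls differed more than in MALAT1 in 15. CTR1 was the higher control in 13 of these 15 genes. Genes below that level were not counted. Those named here were singled out after their values were seen. They included some immediate-early genes, which cells switch on within minutes of a stimulus, such as FOSB (216 CPM in CTR1 and 2.06 in CTR2), FOS (182 and 3.06), EGR1 (451 and 39.3) and NR4A1 (92.3 and 10.8). FOS had 252 and 242 CPM with sh-MIR100HG-1 and 4.23 and 6.83 with sh-MIR100HG-2. DUSP1, a phosphatase of the same early response, had 625 and 80.6 CPM in the controls, 562 and 935 with sh-MIR100HG-1, and 79.7 and 243 with sh-MIR100HG-2. Each was high in the 3 libraries in which MALAT1 and NEAT1 were high. CST1, a secreted cystatin, ran the other way, with 64.7 CPM in CTR1, 362 in CTR2, 50.5 and 39.4 with sh-MIR100HG-1, and 431 and 262 with sh-MIR100HG-2. Their relation to MALAT1 and NEAT1 was not tested.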
